A study of Mus musculus with 6 samples.

Results

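Receptors for hematopoietic growth factors were described in marrow of mice with a myelodysplastic-like disease. They comprised 9 genes, Kit, Flt3, Csf1r, Csf2ra, Csf2rb, Csf2rb2, Csf3r, Il3ra and Epor, and were taken as every probe set of the array whose annotation gives exactly 1 of these symbols. That rule found 14 of 45037 probe sets and 9 of 18193 genes, and all of them had a value on every array. A further probe set that carries the symbols of both Csf2rb and Csf2rb2 was left out by the rule. The marrow came from 3 samples titled ASXL1Mt, from mice transplanted with ASXL1-MT cells, and from 3 samples titled mock, described as normal controls. Both sets of titles carry the prefix BMT, and marker-negative cells were kept after magnetic removal of cells bearing CD3e (T cells), B220 (B cells) or TER-119 (red cell precursors). The study text gives this depletion for both groups, whereas the sample label gives it for mock only. Strain, age, the vector and its promoter, what the mock mice received and whether a sample was 1 mouse or a pool are not given in the sources used here. The p-values below therefore measure only how these samples scatter, which may be technical scatter, and the number of arrays limits the precision.

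Growth factor receptors fall into 2 families here. Kit, Flt3 and Csf1r are receptor tyrosine kinases, which pair and phosphorylate themselves when stem cell factor, FLT3 ligand or CSF-1 binds. The others are cytokine receptors without an enzyme of their own, which signal through JAK kinases and STAT factors. Csf3r and Epor act as homodimers for G-CSF and erythropoietin, while Csf2ra and Il3ra are alpha chains that bind GM-CSF and IL-3 and need a beta chain. In mice the common beta chain Csf2rb serves GM-CSF, IL-3 and IL-5, and its near-identical relative Csf2rb2 serves IL-3 alone. Because these sequences are so alike, signal of 1 beta chain may be read by a probe set of the other, and their values are not fully independent.

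Promoter sequence is shown for Flt3, the receptor that was higher, and for 3 of the receptors on the lower side, because the factors PU.1 (Spi1) and C/EBP are known to act at promoters of myeloid receptor genes. RefSeq promoters (GRCm38.p6), matched by symbol, were examined for 7 of the 9 genes. No promoter sequence of Csf2rb was available. Csf1r was left out by choice and not for want of a match, so its motifs were not examined. The 250 bases before the start are printed 5′ to 3′ on the strand of the gene. Flt3 lies at chr5:147400490-147400739 on the minus strand, Csf3r at chr4:126024409-126024658 on the plus strand, Csf2rb2 at chr15:78305722-78305971 on the minus strand and Csf2ra at chr19:61228419-61228668 on the minus strand. Capitals mark matches on either strand to GAGGAA (the core bound by PU.1), TTGCNNAA (bound by C/EBP), TGTGGT (RUNX), AGATAA or TGATAA (both GATA).
Flt3: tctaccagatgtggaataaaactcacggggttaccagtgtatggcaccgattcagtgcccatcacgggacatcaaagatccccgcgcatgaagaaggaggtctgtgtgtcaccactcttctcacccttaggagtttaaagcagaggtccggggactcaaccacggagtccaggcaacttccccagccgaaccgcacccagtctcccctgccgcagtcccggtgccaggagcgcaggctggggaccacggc
Csf3r: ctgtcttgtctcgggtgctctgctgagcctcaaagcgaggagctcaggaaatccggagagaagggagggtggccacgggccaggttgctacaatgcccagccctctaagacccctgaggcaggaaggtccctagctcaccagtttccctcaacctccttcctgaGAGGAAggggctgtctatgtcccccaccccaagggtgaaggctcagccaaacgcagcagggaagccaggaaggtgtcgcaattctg
Csf2rb2: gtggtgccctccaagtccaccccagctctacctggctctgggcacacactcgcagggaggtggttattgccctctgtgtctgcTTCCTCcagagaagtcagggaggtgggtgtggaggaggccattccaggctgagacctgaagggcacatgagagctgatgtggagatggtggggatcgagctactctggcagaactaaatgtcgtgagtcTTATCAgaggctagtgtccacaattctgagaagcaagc
Csf2ra: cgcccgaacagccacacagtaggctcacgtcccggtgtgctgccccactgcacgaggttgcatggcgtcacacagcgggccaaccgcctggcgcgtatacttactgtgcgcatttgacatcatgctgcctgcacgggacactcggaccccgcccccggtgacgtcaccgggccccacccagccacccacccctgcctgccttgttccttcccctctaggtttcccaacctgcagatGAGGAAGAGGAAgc
The Csf3r window holds GAGGAA from 86 to 81 bases before the start. In Csf2ra 2 copies stand side by side at 14 to 9 and at 8 to 3 bases before the start, and in Csf2rb2 a copy on the other strand lies at 167 to 162. The other capitals of Csf2rb2, at 38 to 33 bases before the start, are TGATAA on the other strand. The Flt3 window holds 0 matches to these 5 motifs. Of the windows not printed, that of Kit holds the PU.1 core, that of Il3ra the C/EBP motif, and that of Epor the RUNX motif and a GATA motif. The printed windows of the lower side are thus those that hold GAGGAA, and Csf2ra among them was not called. Il3ra, also on the lower side, lacks GAGGAA, whereas Kit, which was not called, holds it. GAGGAA occurs in 23.3% of 32851 promoter windows of this length, TTGCNNAA in 9.56%, TGTGGT in 14%, AGATAA in 9.99% and TGATAA in 7.94%. These matches describe letters and are not evidence of binding, and the motifs within these 4 windows do not overlap each other.

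All values below are deposited log2 signals that were centred for each probe set on its median over the 6 arrays. A value of 0 is thus the middle of the arrays, and where groups do not overlap on a probe set the nearest array of each group lies equally far from 0. The levels themselves were removed by this centring, so receptors cannot be ranked by expression and a fold holds only if the logs have base 2, which no label states. Differences subtract the mean of the mock arrays from that of the ASXL1-MT arrays, and a gene is the mean of its probe sets. Differences were tested with limma over all genes, and "higher" or "lower" as a call means an adjusted p (Benjamini-Hochberg) below 0.05. Array medians lay between 0.02 and 0.05 in ASXL1-MT and between -0.05 and -0.03 in mock, and the median difference of all genes was 0.11. A trace of the level was kept by the rounding of the numbers. Logs of 8 and above, a signal of 256 in base 2, lie on a coarser step than lower ones, and 10 of the 14 receptor probe sets lay on that step on all 6 arrays. By the same measure 9 of 10 measured neutrophil marker genes had such a probe set, in cells labelled as myeloid.

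Of the 9 receptor genes, 1 was higher and 3 were lower in ASXL1-MT marrow, where 11.4% of all genes were called, 6.63% as higher and 4.75% as lower. Flt3 was the receptor that rose. The lower ones were Csf3r and both beta chains, Csf2rb and Csf2rb2. For Kit, Csf1r, Csf2ra, Il3ra and Epor the test was not passed. The groups did not overlap for 6 of the 9 genes, with 1 gene on the higher and 5 on the lower side, against 37.9% of all genes (23.5% higher and 14.4% lower), and these 6 were the called genes with Csf2ra and Il3ra. Over the list the median difference was -0.45, beside 0.11 over all genes. Without adjustment, 1 gene was higher and 5 were lower at p under 0.05. At the level of probe sets 1 of 14 was higher and 4 were lower, where 8.1% of all probe sets were called, 4.73% as higher and 3.37% as lower. Groups did not overlap on 8 of the 14 probe sets, against 35.4% of all.

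**Figure D1:**
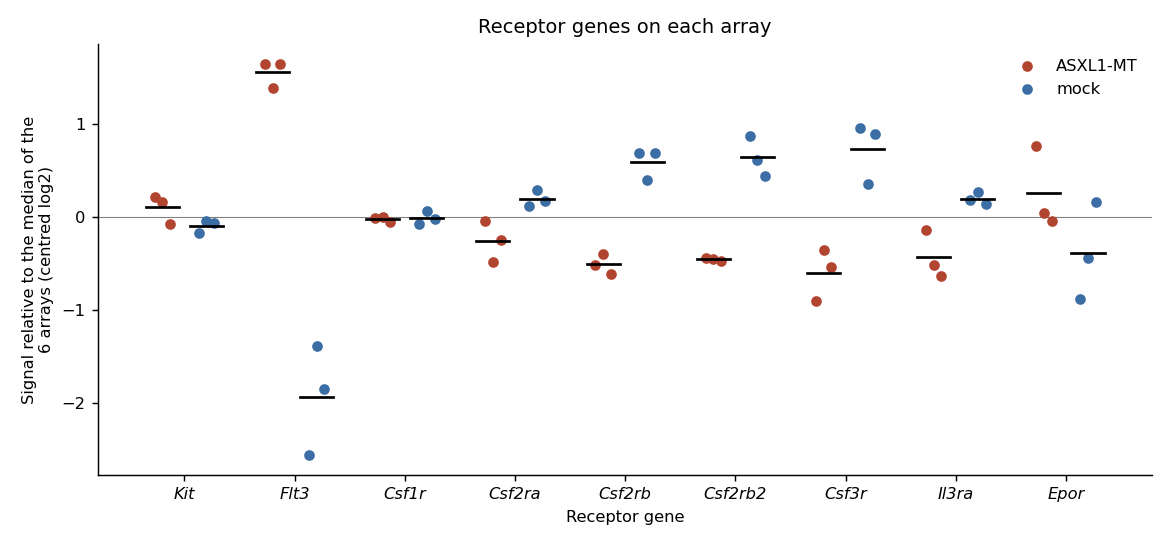
Centred log2 signal (y axis) of each receptor gene (x axis) on the 3 ASXL1-MT arrays and the 3 mock arrays, with bars at the group means. Flt3 lies between 1.39 and 1.65 in ASXL1-MT and between -2.57 and -1.39 in mock, whereas Csf3r, Csf2rb and Csf2rb2 lie below 0 on each ASXL1-MT array and above 0 on each mock array.

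Among the tyrosine kinases, Flt3, the receptor of multipotent and dendritic cell progenitors, stood at 1.65, 1.39 and 1.64 on the ASXL1-MT arrays against -2.57, -1.39 and -1.85 on the mock arrays. The ASXL1-MT arrays lay close together, the mock arrays were spread more widely, and the groups were far apart. The log2 difference was 3.50 (SE 0.33, 95% confidence interval 2.68 to 4.32, n = 3 each, adjusted p = 0.01 by limma), or 11.3-fold. Only 0.599% of all genes had a larger absolute difference. Mock replicate 1, the lowest array, was off the coarse step, so its log was under 8. In the fit over genes the call was lost without ASXL1-MT replicate 3 (3.46, adjusted p = 0.0534) and held with each other array left out (3.18 to 3.77). In limma's fit over all probe sets its only probe set, 1419538_at, passed in 3 of 6 such fits (adjusted p from 0.0382 to 0.0752). In bulk marrow, fewer cells of a type and less RNA per cell cannot be told apart. Dendritic cell markers moved with Flt3, with 8 of 10 higher and 0 lower, where 6.63% of all genes were called as higher and 4.75% as lower. Their list mean was 0.88, 0.88 and 0.90 on the ASXL1-MT arrays against -2.08, -0.79 and -1.06 on the mock arrays. Siglech, a lectin found on plasmacytoid dendritic cells, rose by 3.58 on the log2 scale, Ciita, the switch factor of MHC class II genes, by 2.80 and the class II chain H2-Eb1 by 2.71. Also called were Bst2, Tcf4, Cd74 and the class II chains H2-Aa and H2-Ab1. Class II genes share a switch factor, so the 8 are not independent markers. Itgax and Xcr1 were not called, at 0.10 (adjusted p = 0.839) and 2.27 (adjusted p = 0.243), both with overlapping groups. B220-bearing cells had been removed, in both groups by the study text but in mock alone by the sample label. What that did to these markers was not tested. Stem and progenitor markers were higher in 6 of 11 cases and lower in 0, where 6.63% of all genes were called as higher. Among the higher ones were the stem cell regulator Mecom by 2.63, Egfl7 by 2.47 and the TIE2 ligand Angpt1 by 1.76. Not all of these markers pointed that way, as Hlf, a factor of stem cells, had a log2 difference of -3.18 (adjusted p = 0.0548) without overlap and Slamf1 -0.69 (adjusted p = 0.457). That list's mean ran from 0.06 to 0.43 in ASXL1-MT and from -0.52 to -0.17 in mock. The part of either cell type in the Flt3 difference was not tested.

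Kit, the receptor for stem cell factor on early progenitors and mast cells, was 0.22, 0.16 and -0.07 on the ASXL1-MT arrays against -0.17, -0.05 and -0.07 on the mock arrays. ASXL1-MT replicate 3 lay within the mock range. Its log2 difference was 0.20 (SE 0.14, 95% confidence interval -0.16 to 0.56, adjusted p = 0.424). Probe set 1452514_a_at had a difference of 0.31 (adjusted p = 0.299) with groups that did not overlap, the nearest arrays being 0.02 in ASXL1-MT replicate 3 and -0.02 in mock replicate 2. The other probe set, 1415900_a_at, had a difference of 0.08 (adjusted p = 0.795), with at least 4 arrays under the coarse step.

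Csf1r, the CSF-1 receptor that monocytes and macrophages depend on, had the narrowest range over the 6 arrays among the 9 genes. It was -0.01, -0.01 and -0.05 on the ASXL1-MT arrays against -0.08, 0.07 and -0.02 on the mock arrays. The difference was -0.01 (SE 0.12, 95% confidence interval -0.32 to 0.30, adjusted p = 0.973), and 99% of all genes had a larger absolute difference. Its sign turned to 0.01 without ASXL1-MT replicate 3 and to 0.03 without mock replicate 2. Its 3 probe sets had differences of 0.10, 0.07 and -0.20, and none passed (adjusted p from 0.491 to 0.793). Monocyte and macrophage markers were lower in 1 of 10 cases and higher in 0, where 4.75% of all genes were called as lower. That list's mean ran from -0.30 to 0.06 in ASXL1-MT and from -1.31 to 0.19 in mock, where replicate 1 stood apart. The 1 lower marker was Vcam1, an adhesion molecule of macrophages and stroma, with a log2 difference of -4.33. The median of the list was 0.38, and the complement genes C1qa, C1qc and C1qb, made by macrophages, had 2.30, 1.53 and 1.33 (adjusted p = 0.405, 0.505 and 0.265).

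**Figure D2:**
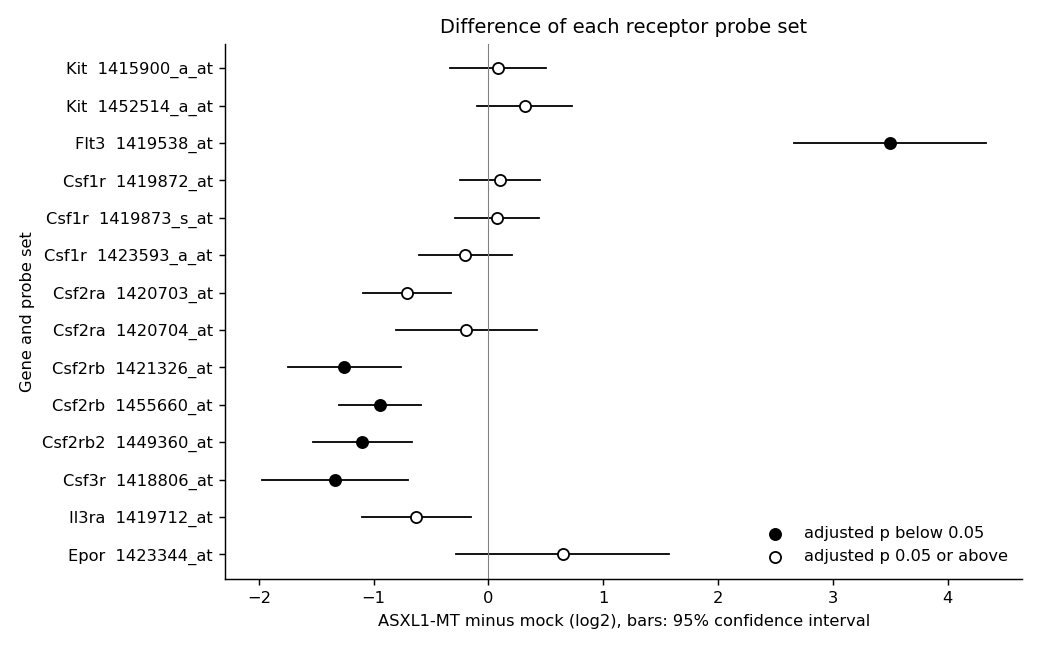
Log2 difference, ASXL1-MT minus mock (x axis), of the 14 receptor probe sets (y axis, gene and probe set), with bars for the 95% confidence interval of the limma fit and filled points for adjusted p below 0.05. Both probe sets of Csf2rb lie left of 0 (-1.25 and -0.94), and of the 2 probe sets of Csf2ra 1 lies at -0.71 and the other at -0.19.

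Csf3r, the G-CSF receptor that drives neutrophil production, was -0.91, -0.36 and -0.54 on the ASXL1-MT arrays against 0.96, 0.36 and 0.89 on the mock arrays. The groups did not overlap, and ASXL1-MT replicate 2 and mock replicate 2 were the nearest arrays. It was lower by 2.53-fold (log2 difference -1.34, SE 0.25, 95% confidence interval -1.96 to -0.72, adjusted p = 0.0307 by limma). No fit with an array left out kept the call. Leaving out ASXL1-MT replicates 1, 2 and 3 in turn gave differences of -1.19, -1.46 and -1.37 (adjusted p = 0.0719, 0.0768 and 0.102). Leaving out mock replicates 1, 2 and 3 gave -1.23, -1.53 and -1.26 (adjusted p = 0.0852, 0.0512 and 0.089). Neutrophil markers were lower in 5 of 10 cases and higher in 0, where 4.75% of all genes were called as lower. Their list means were -0.70, -0.45 and -0.61 on the ASXL1-MT arrays against 0.41, 0.54 and 0.60 on the mock arrays. Il1r2, a decoy receptor for IL-1, had a log2 difference of -4.17, the gelatinase Mmp9 -1.87 and the chemokine receptor Cxcr2 -1.65. Of those not called, S100a8, S100a9, Camp and Ngp had -0.18, 0.0003, -0.17 and -0.15 with overlapping groups (adjusted p from 0.509 to 0.999). Ltf had -0.45 (adjusted p = 0.13), without overlap. The part of neutrophils in the Csf3r difference was not tested.

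The beta chains moved by nearly the same amount. Csf2rb was -0.52, -0.40 and -0.62 on the ASXL1-MT arrays against 0.68, 0.40 and 0.69 on the mock arrays, a log2 difference of -1.10 (SE 0.15, 95% confidence interval -1.49 to -0.71, adjusted p = 0.0181 by limma), or 2.14-fold lower. Every ASXL1-MT array was below every mock array on both of its probe sets, with differences of -1.25 on 1421326_at (adjusted p = 0.029) and -0.94 on 1455660_at (adjusted p = 0.0276). Csf2rb2 was -0.44, -0.45 and -0.48 on the ASXL1-MT arrays against 0.87, 0.61 and 0.44 on the mock arrays. Here the ASXL1-MT arrays were almost equal and mock replicate 3 lay nearest to them. The log2 difference was -1.10 (SE 0.16, 95% confidence interval -1.50 to -0.69, adjusted p = 0.0196 by limma), or 2.14-fold. With 1 array left out Csf2rb kept its call only when that was mock replicate 2 (-1.195, adjusted p = 0.0474). Leaving out ASXL1-MT replicates 1, 2 and 3 gave differences of -1.095, -1.156 and -1.045 (adjusted p = 0.0523, 0.0617 and 0.0788), and leaving out mock replicates 1 and 3 gave -1.051 and -1.05 (adjusted p = 0.0545 and 0.06). Csf2rb2 kept its call when mock replicate 1 or 3 was left out, with differences of -0.98 and -1.199 (adjusted p = 0.0467 and 0.047). It lost the call when ASXL1-MT replicate 1, 2 or 3 (adjusted p = 0.0547, 0.074 and 0.0832) or mock replicate 2 (adjusted p = 0.0639) was left out. Tested among all probe sets, each probe set of the 2 beta chains passed in 0 of 6 such fits.

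**Figure D3:**
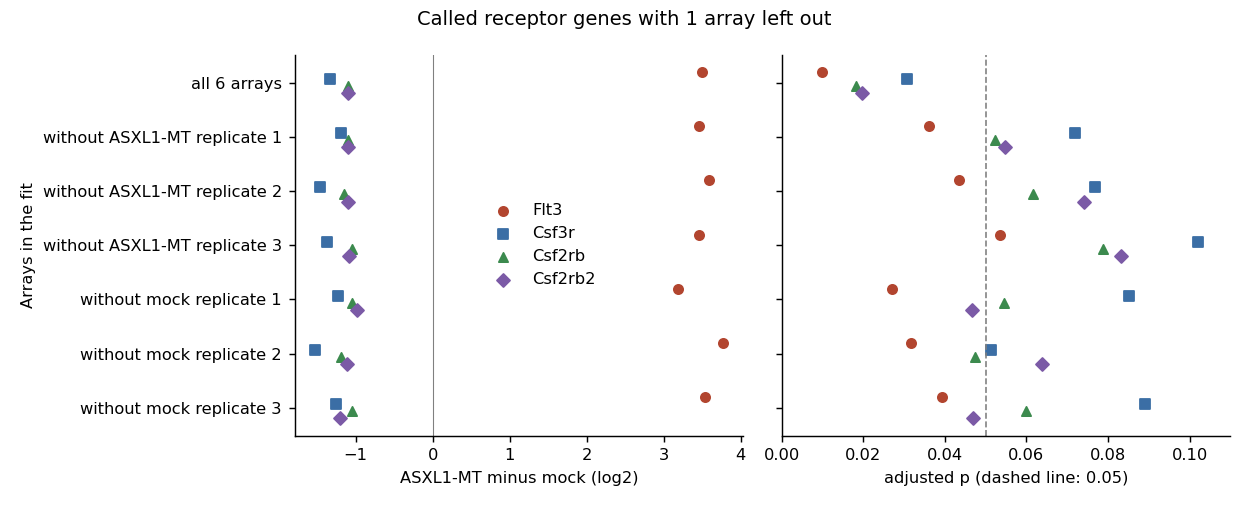
Log2 difference, ASXL1-MT minus mock (left x axis), and adjusted p (right x axis, dashed line at 0.05) of the 4 called receptor genes, with all 6 arrays and with each array left out (y axis). Differences stay on their side of 0, from 3.18 to 3.77 for Flt3 and from -1.53 to -0.98 for the other 3, whereas adjusted p crosses 0.05 in most of these smaller fits.

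As genes, the alpha chains Csf2ra and Il3ra had every ASXL1-MT array below every mock array, as the beta chains did, but were not called. Csf2ra, which gives the GM-CSF receptor its specificity, was -0.04, -0.48 and -0.25 on the ASXL1-MT arrays against 0.11, 0.29 and 0.17 on the mock arrays. The groups did not overlap. Its log2 difference was -0.45 (SE 0.17, 95% confidence interval -0.87 to -0.03, adjusted p = 0.148). The probe sets of Csf2ra disagreed. Probe set 1420703_at was -0.23, -0.39 and -0.39 on the ASXL1-MT arrays against 0.43, 0.46 and 0.23 on the mock arrays, a difference of -0.71 (adjusted p = 0.0524). That probe set passed in 5 of 6 other settings of the scaling, the variance model or the brightness filter (adjusted p from 0.00919 to 0.0621), in 0 of 6 when single arrays were dropped (adjusted p between 0.0923 and 0.171), and not with the replicate block (adjusted p = 0.17). Probe set 1420704_at had a difference of -0.19 (adjusted p = 0.671) with overlapping groups, and it was 0.00 without ASXL1-MT replicate 2. When Csf2ra was represented by its probe set of smallest spread, 1420703_at, the gene was called as lower (adjusted p = 0.0166).

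Il3ra, the alpha chain for IL-3, was -0.14, -0.52 and -0.64 on the ASXL1-MT arrays against 0.18, 0.26 and 0.14 on the mock arrays. ASXL1-MT replicate 1 lay nearest to mock, without overlap. Its log2 difference was -0.63 (SE 0.18, 95% confidence interval -1.08 to -0.18, adjusted p = 0.0837), and adjusted p ran from 0.0514 to 0.0925 over 6 other settings and was 0.178 with the replicate block. At least 5 arrays were under the coarse step. Il5ra, the alpha chain for IL-5 on eosinophils, was -0.28, 0.24 and -2.64 on the ASXL1-MT arrays against -0.24, 1.54 and 1.59 on the mock arrays, with overlap and a difference of -1.86 (SE 0.93, adjusted p = 0.258). Cells that use these chains were examined through their markers. Basophil and mast cell markers were lower in 2 of 8 cases and higher in 0, where 4.75% of all genes were called as lower. Their list means were -1.39, -0.88 and -0.44 on the ASXL1-MT arrays against 0.57, 0.48 and 0.99 on the mock arrays. The lower ones were Fcer1a, a chain of the IgE receptor, with a log2 difference of -7.17, and Hdc, which makes histamine, with -2.39. Fcer1a had the largest difference of the list and weighs most in these means. Of those not called, Ms4a2, Gata2, Mcpt8 and Cma1 had -0.07, 0.04, -0.34 and -0.76 with overlapping groups. Cpa3 and Tpsb2 had -0.87 (adjusted p = 0.0518) and -1.125 (adjusted p = 0.0836), without overlap. Of 5 eosinophil markers, Il5ra itself among them, 1 was lower, Siglecf with -1.46, where 4.75% of all genes were called as lower. Their list means were -0.46, -0.29 and -0.89 on the ASXL1-MT arrays against -0.20, 1.97 and 1.97 on the mock arrays. The part of these cells in the differences of Csf2rb, Csf2rb2, Csf2ra and Il3ra was not tested.

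Epor, the erythropoietin receptor of red cell progenitors, was 0.76, 0.04 and -0.04 on the ASXL1-MT arrays against -0.88, -0.45 and 0.16 on the mock arrays. The groups overlapped, because mock replicate 3 was above ASXL1-MT replicates 2 and 3. The log2 difference was 0.65 (SE 0.36, 95% confidence interval -0.26 to 1.55, adjusted p = 0.304), and at least 4 arrays were under the coarse step. Leaving out 1 array gave differences from 0.39 to 0.92. Erythroid markers were higher in 1 of 8 cases and lower in 0, where 6.63% of all genes were called as higher. ASXL1-MT replicate 1, the highest array for Epor, was also the highest for the list mean of these markers. It was not the highest for Hba-a1, at -0.33 there and 1.10 on ASXL1-MT replicate 2. The list means were 1.74, 0.61 and 0.04 on the ASXL1-MT arrays against -1.37, -0.89 and -0.19 on the mock arrays. The higher one was Alas2, which starts heme synthesis in erythroid cells, by 3.98. Cells bearing TER-119 had been removed, in both groups by the study text but in mock alone by the sample label. What that did to Epor and to the erythroid markers was not tested.

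Ligands of these receptors gave no call. Of 7 measured ligand genes 0 passed limma's test, and without adjustment 1 was higher and 1 lower at p under 0.05. Their median difference was 1.13. Kitl, stem cell factor, had a log2 difference of 1.13 (SE 0.38, adjusted p = 0.124), without overlap, and Csf1, the ligand of Csf1r, had -0.91 (SE 0.28, adjusted p = 0.096), also without overlap. Csf2, which encodes GM-CSF, had 1.90 (SE 0.89, adjusted p = 0.231), with overlapping groups. Only 2 of the 7 had a probe set on the coarse step on all arrays. Of 12 other measured receptors 2 were lower and 0 higher, where 4.75% of all genes were lower and 6.63% higher. Their median difference was -0.05. Crlf2, the receptor chain for TSLP, was -0.45, -0.67 and -0.66 on the ASXL1-MT arrays against 0.53, 0.45 and 0.60 on the mock arrays, a difference of -1.12 (SE 0.14, adjusted p = 0.0143). Pdgfrb, a PDGF receptor of mesenchymal cells and a relative of Kit, Flt3 and Csf1r, had -1.05 (SE 0.21, adjusted p = 0.0372). Il7r, a receptor of lymphoid progenitors, and Lepr, the leptin receptor, had differences of 1.60 (adjusted p = 0.0884) and 1.77 (adjusted p = 0.0591).

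Genes that carry the receptor signal were mostly not called. Of 40 measured signalling genes 2 were higher and 2 lower, a share near the 11.4% of all genes. Without adjustment 2 were higher and 9 lower at p under 0.05. The list's median difference was -0.03, beside 0.11 over all genes. Fgr, a SRC family kinase of myeloid cells, was lower, with a log2 difference of -1.39 (SE 0.15, adjusted p = 0.0119), as was Gab3, an adaptor phosphorylated after CSF-1 binds Csf1r, with -1.14 (SE 0.16, adjusted p = 0.0179). Higher were Pim2, a survival kinase induced by STAT factors, by 1.35 (SE 0.27, adjusted p = 0.0368) and the kinase Fyn by 1.303 (SE 0.25, adjusted p = 0.034). Stat5a and Stat5b, which act below the cytokine receptors, had differences of 0.34 (adjusted p = 0.375) and -0.39 (adjusted p = 0.138), and Jak2, the kinase bound to the beta chain and Epor, had 0.19 (adjusted p = 0.37). Signalling genes named here without a call were picked after their values were seen. Socs3, a feedback inhibitor at Csf3r, was -0.06, -2.34 and -1.97 on the ASXL1-MT arrays against 0.06, 0.80 and 0.95 on the mock arrays, a difference of -2.06 (SE 0.66, adjusted p = 0.11).

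**Figure D4:**
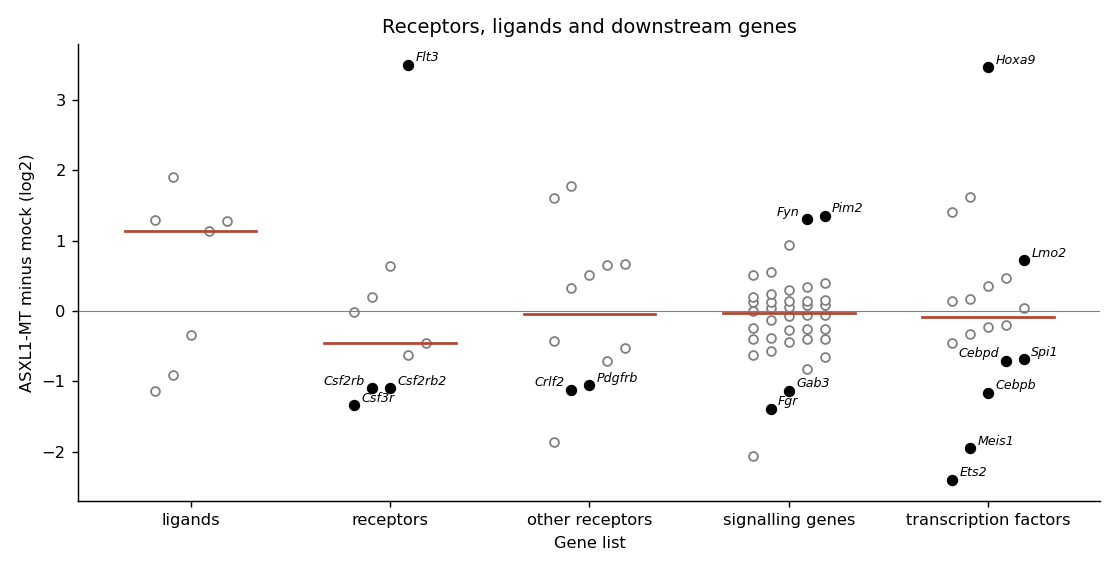
Log2 difference, ASXL1-MT minus mock (y axis), of every measured gene in 5 lists (x axis), with filled and named points for adjusted p below 0.05, open points for the others and a red bar at the list's median. Flt3 (3.50) and Hoxa9 (3.46) lie highest, and the median is -0.45 for the receptors and -0.03 for the signalling genes.

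Transcription factors known to act at these receptor genes were called in both directions. Of 18 measured factors 5 were lower and 2 higher, where 4.75% of all genes were lower and 6.63% higher, and the median difference was -0.08. Spi1, which encodes PU.1, was -0.32, -0.33 and -0.37 on the ASXL1-MT arrays against 0.37, 0.35 and 0.32 on the mock arrays, a difference of -0.68 (SE 0.12, adjusted p = 0.0272). Arrays of each group lay within a narrow range, and the groups did not overlap. Cebpb and Cebpd, C/EBP factors of myeloid cells, were lower, with differences of -1.16 (adjusted p = 0.0256) and -0.71 (adjusted p = 0.0478), while Cebpa, which acts early in granulocyte formation, had 0.35 (adjusted p = 0.21). Ets2 and Meis1 were lower, with -2.40 (adjusted p = 0.0272) and -1.95 (adjusted p = 0.0469). The higher ones were Hoxa9, a homeobox factor of progenitors, by 3.46 (SE 0.33, adjusted p = 0.0105) and Lmo2, a partner of the stem cell factor Tal1, by 0.72 (SE 0.14, adjusted p = 0.036). Gata2, Gata1 and Runx1 were not called, at 0.04 (adjusted p = 0.873), 0.17 (adjusted p = 0.869) and 0.47 (adjusted p = 0.111). Without ASXL1-MT replicate 3, 0 of the 18 passed limma's adjusted test (8 at an unadjusted p under 0.05).

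Neighbours of the receptors on the chromosome, added after the receptor values were seen, differed from gene to gene. Of all genes 11.4% were called. In GRCm38.p6 the beta chain genes lie side by side, and Ncf4, a subunit of the phagocyte oxidase, is next to Csf2rb2. All 3 of these adjoining genes were lower, Ncf4 with -1.06 (adjusted p = 0.0156). Beyond Csf2rb, Tex33 had -0.87 (adjusted p = 0.35) and Tst, the next gene, was lower with -0.98 (adjusted p = 0.0372). Near Csf3r, Oscp1 was lower with -1.22 (adjusted p = 0.0128) and Mrps15, between them, had 0.86 (adjusted p = 0.0948). On its other side Grik3 had -0.40 (adjusted p = 0.782) and Zc3h12a -1.39 (adjusted p = 0.0541), the latter without overlap. No examined neighbour of Epor was called, and those of Il3ra had no value. Zfp950, the nearest measured neighbour of Csf2ra, was higher by 0.94 (adjusted p = 0.0445). Flt3 lies near Pan3, with a difference of 0.28 (adjusted p = 0.516), and Flt1, another receptor kinase, with -0.63 (adjusted p = 0.577). Kit is flanked by the related kinases Pdgfra and Kdr, at 0.51 (adjusted p = 0.367) and 0.48 (adjusted p = 0.315). Csf1r, which did not pass, adjoins Pdgfrb, which was lower.

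For each called receptor the 3 genes with the highest Pearson's r over the 6 arrays are given, as a description of arrays that fall into 2 groups. This r compares the pattern over the arrays and not the size of the values. Flt3 was followed by H2-Ob, an MHC class II chain (r = 0.9996, log2 difference 2.79), Cdk4 (r = 0.9994, 0.76) and Aurkb (r = 0.9987, 0.60), all 3 called as higher. For Csf3r they were Clec5a, an activating receptor of myeloid cells (r = 0.9975, -1.02, called), Ebi3 (r = 0.9957, -0.59) and Wwp1 (r = 0.9953, -0.32), the last 2 not called. Csf2rb was followed by Nin (r = 0.9989, not called), Gas7 (r = 0.9977) and Dmxl2 (r = 0.9976), with differences of -0.48, -1.22 and -1.64. Csf2rb2 was followed by Tmem120a (r = 0.9989), Resf1 (r = 0.9987) and Inpp5a (r = 0.9983), called as lower with -1.29, -1.303 and -1.31. High values of r were common, and 973 genes had an r over 0.95 with Flt3 and 321 with Csf3r.

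**Figure D5:**
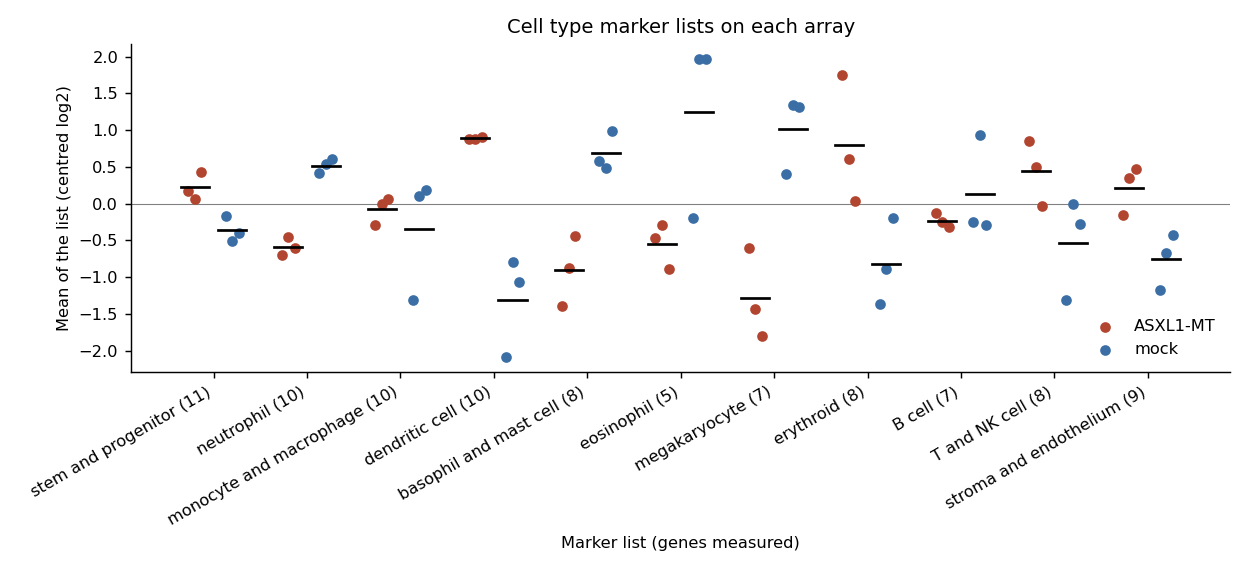
Mean centred log2 value (y axis) of 11 cell type marker lists (x axis, genes measured in brackets) on the 3 ASXL1-MT arrays and the 3 mock arrays, with bars at the group means. Dendritic cell markers lie between 0.88 and 0.90 in ASXL1-MT and between -2.08 and -0.79 in mock, and neutrophil markers between -0.70 and -0.45 in ASXL1-MT and between 0.41 and 0.60 in mock.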

How the data were processed

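Total RNA of 6 mouse marrow samples was hybridized to Affymetrix arrays, per the labels' protocols, and signals were made with MAS5, per the submitters' processing notes. The deposited values were log values, taken as log2 and centred on each probe set's median. Log base and centring were read from the values (largest row median 5e-07) and are not stated. Symbols came from the platform annotation (1 symbol for 34945 probe sets, several for 932, none here for 9160), and genes were means of their probe sets. Groups were compared with limma 3.58.1 (R 4.3.3; lmFit, then eBayes), with group as the only term, tested first on simulated data. A probe set was bright where its 3 highest arrays differed by whole steps of the coarse rounding (20 binary places, tolerance 0.15 of a step), which held for 46.2%. Named genes were all members, called genes of the ligand and receptor lists and up to 6 called of the other pathway lists. Up to 3 called per marker list and the genes of highest r were named too. Added to these were Spi1 (called, beyond those 6) and uncalled genes named after their values were seen. Members and lists were chosen with earlier results of these data known. Alternatives covered scaling, variance model, array weights, brightness, choice of probe set, replicate block and each array left out.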

Additional observations from a re-analysis of the deposited data

How the results depend on the processing

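Flt3, Csf3r, Csf2rb and Csf2rb2 kept their calls under quantile normalization, cyclic loess, equal array medians, robust variances, array weights, bright probe sets alone and 1 probe set a gene, that of smallest spread. Scaling moved the median difference of all genes from 0.11 to between 0.01 and 0.03, and the share of calls that were higher from 58.3% to 47.6% (quantile), 46.6% (loess) and 49.3% (equal medians). Calls among all genes were 2072, with 3867 on bright probe sets alone and 3898 where the probe set of smallest spread stood for its gene. In these last 2 settings the ligand and other receptor calls were 6 and 5, against 2, and the signalling calls 8 in both, against 4. By that choice Csf2ra was called (-0.71), and Csf1r turned to 0.0989 without passing. Under loess the probe sets 1415900_a_at of Kit and 1419872_at and 1419873_s_at of Csf1r turned to -0.009606, -0.02628 and -0.02175, and the last also to -0.01506 (quantile) and -0.006519 (equal medians). Il3ra and Epor had no bright probe set and so no value there.

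Replicate numbers did not pair the samples, with same-number correlations of deviations of -0.00882, -0.0116 and -0.00903. With the replicate block limma called 0 genes (4568 at an unadjusted p under 0.05), and thus 0 receptor genes (5), 0 receptor probe sets (7), and 0 ligand and other receptor (6), 0 signalling (5) and 0 transcription factor genes (7). Differences were then 3.50 for Flt3 (adjusted p = 0.0935), -1.10 for Csf2rb (adjusted p = 0.111), -1.10 for Csf2rb2 (adjusted p = 0.105) and -1.34 for Csf3r (adjusted p = 0.13).

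With each array left out, calls ran from 192 (without ASXL1-MT replicate 3) to 1033 (without ASXL1-MT replicate 1) among all genes, 0 to 2 among receptor genes, 0 to 1 among receptor probe sets, 0 to 1 among ligands and other receptors, 0 to 2 among signalling genes and 0 to 3 among transcription factors. Differences ran from 3.18 to 3.77 for Flt3, -1.195 to -1.045 for Csf2rb, -1.199 to -0.98 for Csf2rb2, -1.53 to -1.19 for Csf3r and -0.04266 to 0.03088 for Csf1r, which changed sign. Those of Csf2ra probe set 1420704_at ran from -0.3591 to 0.001888, the last without ASXL1-MT replicate 2. These fits have fewer samples. An offset, a floor or background correction could not be run, since centring removed the levels.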

Other observations

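Marker lists of 4 further cell types were measured beside the receptors, where 6.63% of all genes were called as higher and 4.75% as lower. The coarse step held on all 6 arrays for 0 of 7 megakaryocyte and 0 of 8 T and NK cell markers. It held for 1 of 7 B cell and 0 of 9 stroma and endothelium markers, so most had arrays with a log under 8. Cells bearing CD3e or B220 had been removed, in both groups by the study text but in mock alone by the sample label. What that did to T and B cell markers was not tested. Of 7 megakaryocyte markers 5 were lower and 0 higher, among them Thbs1, an adhesive platelet protein (-4.29), Pf4, a platelet chemokine (-2.44), and Vwf (-1.78), with list means of -0.61, -1.44 and -1.80 on the ASXL1-MT arrays against 0.41, 1.34 and 1.31 on the mock arrays. Of 8 T and NK cell markers 4 were higher and 0 lower, among them Cd8b1 (3.68), Cd8a (2.99) and Klrd1 (2.85), while the T cell receptor chains Cd3d and Cd3g had -2.82 (adjusted p = 0.0613, no overlap) and -1.38 (adjusted p = 0.622), with list means of 0.86, 0.49 and -0.03 on the ASXL1-MT arrays against -1.31, -0.01 and -0.28 on the mock arrays. Of 7 B cell markers 1 was higher, Cd79b (0.96), but the median difference of the list was -0.47, with -0.65 for Cd79a (adjusted p = 0.243, no overlap) and -1.54 for Ms4a1 (adjusted p = 0.23), and list means were -0.13, -0.26 and -0.32 on the ASXL1-MT arrays against -0.25, 0.94 and -0.30 on the mock arrays. Of 9 stroma and endothelium markers 3 were higher and 0 lower, Bgn (2.62), Cxcl12 (2.33) and Col3a1 (1.68), while the collagen gene Col1a1 had -1.48 (adjusted p = 0.103, no overlap), with list means of -0.16, 0.35 and 0.47 on the ASXL1-MT arrays against -1.18, -0.67 and -0.43 on the mock arrays.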
